A study of Rattus norvegicus with 8 samples.

Results

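The genes described here are 9 genes of the mast cell and of its growth factor receptor Kit. They are the granule protease genes Cpa3, Cma1, Tpsab1 and Tpsb2, the receptor Kit and its ligand Kitlg, the histamine-forming enzyme Hdc, and the IgE receptor subunits Fcer1a and Ms4a2. They come from a list of gene symbols drawn up with earlier results of these data known, and all 9 were found among the 19239 genes of the array. The saphenous artery, a muscular artery that supplies the hind leg, was taken from male Wistar rats, with no treatment or genetic change named in the labels, and its messenger RNA was measured. Adult rats of 2 to 3 months gave 4 samples, each of the 2 arteries of 1 animal, and young rats of 10 to 12 days gave 4 samples, each of 4 arteries pooled from 2 animals. The pooling means that the spread among young samples is a spread between pairs of animals. Values are log2 expression from 1 array per sample (Affymetrix Rat Gene 1.0), and differences are adult minus young.

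Mast cells are immune cells that enter tissues as immature precursors from the blood, mature there and settle beside small vessels and nerves. Stem cell factor, the product of Kitlg, binds the receptor tyrosine kinase Kit on their surface and keeps them alive. Their granules hold histamine and large amounts of chymases, tryptases and carboxypeptidase A3, packed on the proteoglycan serglycin. Antigen that crosslinks IgE on the high-affinity IgE receptor releases the granules, and the contents act on vessel tone, on vessel permeability and on the surrounding matrix.

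The promoters of the protease genes that differed between ages are shown first, since these genes share a cell type and moved in one direction. GATA factors and MITF are transcription factors known for activating mast cell genes, and their motifs were looked for in the RefSeq promoters of the GRCr8 assembly, which run from 250 bases before to 50 bases after the annotated start. Of the 9 genes 8 had an entry there, and Ms4a2 had none. A GATA motif was spelled AGATAA or TGATAA or AGATAG or TGATAG, and a MITF motif was spelled CACGTG or CATGTG, each on both strands. The Cpa3 promoter lies at chr2:104673188-104673487 (minus strand), that of Cma1 at chr15:33390084-33390383 (minus strand), that of Mcpt1l1, a further chymase gene described below, at chr15:33876846-33877145 (minus strand), that of Tpsb2 at chr10:14886060-14886359 (plus strand) and that of Tpsab1 at chr10:14867253-14867552 (minus strand). Each line reads 5′ to 3′ on the strand of its gene, and capitals mark a motif, which reads as its reverse complement where it lies on the opposite strand.
Cpa3: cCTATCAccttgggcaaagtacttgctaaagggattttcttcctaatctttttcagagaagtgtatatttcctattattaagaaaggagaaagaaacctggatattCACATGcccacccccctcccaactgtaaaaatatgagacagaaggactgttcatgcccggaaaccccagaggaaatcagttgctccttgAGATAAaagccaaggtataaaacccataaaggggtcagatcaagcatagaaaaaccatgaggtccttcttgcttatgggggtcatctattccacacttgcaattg
Cma1: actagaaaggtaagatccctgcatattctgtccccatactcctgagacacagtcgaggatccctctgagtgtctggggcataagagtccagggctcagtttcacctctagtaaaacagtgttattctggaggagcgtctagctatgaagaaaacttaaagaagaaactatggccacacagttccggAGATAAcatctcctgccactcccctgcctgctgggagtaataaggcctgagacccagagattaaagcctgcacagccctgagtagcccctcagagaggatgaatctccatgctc
Mcpt1l1: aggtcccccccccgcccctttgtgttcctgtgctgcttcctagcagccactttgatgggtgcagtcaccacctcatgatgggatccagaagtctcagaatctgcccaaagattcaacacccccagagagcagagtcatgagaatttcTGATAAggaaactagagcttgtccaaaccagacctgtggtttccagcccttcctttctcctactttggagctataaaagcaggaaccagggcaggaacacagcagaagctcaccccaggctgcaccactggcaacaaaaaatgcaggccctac
Tpsb2: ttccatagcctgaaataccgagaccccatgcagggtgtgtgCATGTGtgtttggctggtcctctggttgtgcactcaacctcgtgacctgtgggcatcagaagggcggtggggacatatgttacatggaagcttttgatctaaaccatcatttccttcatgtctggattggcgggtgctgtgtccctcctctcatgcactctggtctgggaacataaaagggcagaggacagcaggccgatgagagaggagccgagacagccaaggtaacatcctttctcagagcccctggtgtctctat
Tpsab1: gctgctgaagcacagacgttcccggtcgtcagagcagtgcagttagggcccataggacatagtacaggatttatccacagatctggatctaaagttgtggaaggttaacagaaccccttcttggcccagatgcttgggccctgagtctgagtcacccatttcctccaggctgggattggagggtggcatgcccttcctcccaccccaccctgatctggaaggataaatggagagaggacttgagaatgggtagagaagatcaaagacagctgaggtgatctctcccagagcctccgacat
The Cpa3 promoter held a TGATAG and an AGATAA motif, which began 249 and 55 bases before the start, and a CATGTG motif at 144 bases. Cma1 held AGATAA 64 bases and Mcpt1l1 held TGATAA 103 bases before the start. Tpsb2 held CATGTG at 209 bases, and Tpsab1 held none of these motifs. Among members that were not called, Fcer1a held CATGTG at 208 bases and AGATAA at 93 bases, while the windows of Kit, Kitlg and Hdc held none. At least 1 of the GATA motifs occurred in 30.3% and at least 1 of the MITF motifs in 19.7% of 33469 promoters, so that a match is a description of the letters and no more.

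The messenger RNAs of the 4 granule proteases were lower in adult than in young arteries, and none of the 9 genes was higher. Cpa3 fell by 1.24 ± 0.136 on the log2 scale (± SE of the limma fit, n = 4 arrays per age), Cma1 by 0.39 ± 0.0482, Tpsb2 by 0.37 ± 0.046 and Tpsab1 by 0.34 ± 0.0514. The genes of the ligand and its receptor, of the histamine enzyme and of both IgE receptor subunits did not pass the threshold (limma, Benjamini-Hochberg adjusted p below 0.01 over all genes, two-sided). Thus 4 of 9 members were lower, where 3080 of 19239 genes or 16% were lower and 32.7% changed in either direction. Since earlier results were known when the members were listed, this is a description and not a comparison with an unselected set. The median difference of the 9 members was -0.14 and that of all genes 0.002. Fewer mast cells and less RNA per mast cell cannot be told apart in RNA of whole arteries.

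**Figure D1:**
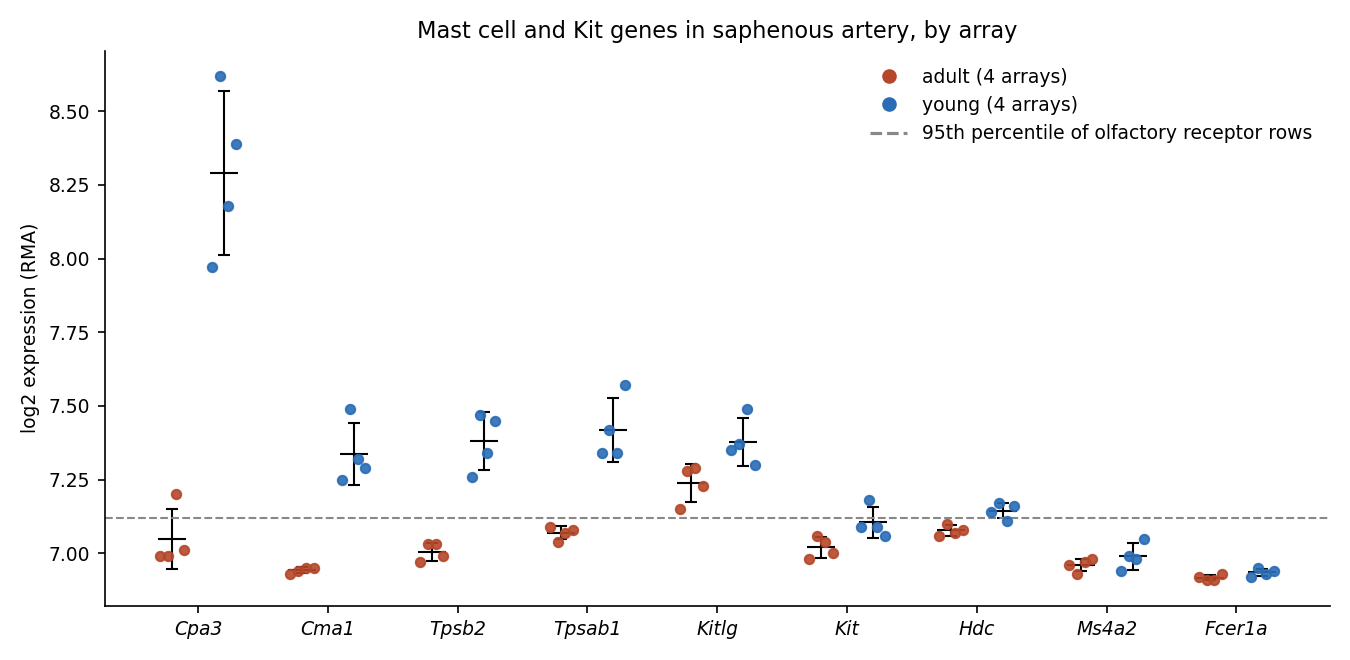
Log2 expression (vertical axis) of the 9 genes in each adult (left) and young (right) array, with mean and SD as black bars and the 95th percentile of the olfactory receptor genes, 7.12, as a dashed line. The 4 adult values lie below the 4 young values in Cpa3, Cma1, Tpsb2 and Tpsab1, and the step of Cpa3 (7.05 against 8.29) is the widest of the 9.

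Carboxypeptidase A3, the product of Cpa3, trims peptides in the granule and degrades peptide hormones and venoms. Cpa3 was measured at 6.99, 6.99, 7.20 and 7.01 in adult arteries, against 7.97, 8.62, 8.18 and 8.39 in young arteries. Every adult array was below every young array, by at least the gap between 7.20 and 7.97. The means were 7.05 ± 0.10 in adult and 8.29 ± 0.28 in young arteries (SD, n = 4 each), a 2.37-fold lower level in adult arteries on this compressed scale (95% interval of the difference -1.56 to -0.92, adjusted p = 2.79e-04). The call held under all 20 alternative settings that were run.

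Cma1 encodes a chymase, a granule protease of a family with members that form angiotensin II in many mammals. The activity of the rat enzyme was not measured here. Its values were 6.93, 6.94, 6.95 and 6.95 in adult arteries and 7.25, 7.49, 7.32 and 7.29 in young arteries. The adult values lay in a narrow band below all young values, and the difference of -0.39 (interval -0.51 to -0.28) had an adjusted p of 4.89e-04. Tpsb2 and Tpsab1 encode tryptases, trypsin-like proteases that form tetramers on heparin. Tpsb2 was at 6.97, 7.03, 7.03 and 6.99 in adult arteries and at 7.26, 7.47, 7.34 and 7.45 in young arteries. Tpsab1 was at 7.09, 7.04, 7.07 and 7.08 in adult arteries and at 7.34, 7.42, 7.34 and 7.57 in young arteries. In both tryptase genes the ages did not overlap, with adjusted p-values of 4.97e-04 for Tpsb2 and 0.00129 for Tpsab1. Their coding sequences resemble each other, so probes may be shared between them.

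These differences are measured near the bottom of the scale. The lowest value of the table stands for an intensity of 111.2, and 95% of the 1145 olfactory receptor genes, receptors of the nose, had a mean below 7.12. By this yardstick 1 of 9 members, Kitlg, had a mean above the olfactory range in adult arteries, and 6 of 9 had one in young arteries. A gene that moves into the floor has its change compressed. When the lowest intensity was subtracted (offset 16), the difference of Cpa3 was -2.57, that of Cma1 -1.25, that of Tpsb2 -1.10 and that of Tpsab1 -0.94. When the arrays were instead centred on ribosomal protein rows, Cma1 (adjusted p = 0.0131), Tpsb2 (0.0208) and Tpsab1 (0.0404) missed the threshold, with differences of -0.38, -0.36 and -0.33. Without the centring these differences were nearly the same, -0.39, -0.37 and -0.34. The limma adjusted p of Cpa3 was instead lower with the centring, 6.14e-22 beside 2.79e-04. Why these p-values moved was not tested.

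Kitlg, the ligand, is made by stromal cells such as endothelium, fibroblasts and smooth muscle. It was measured at 7.15, 7.28, 7.29 and 7.23 in adult arteries and at 7.35, 7.37, 7.49 and 7.30 in young arteries. The highest adult value, 7.29, lay just under the lowest young value, 7.30. The difference was -0.14 ± 0.0481 (interval -0.25 to -0.03), with an adjusted p of 0.0504. Kit, the receptor, was at 6.98, 7.06, 7.04 and 7.0 in adult arteries and at 7.09, 7.18, 7.09 and 7.06 in young arteries. The highest adult and the lowest young value of Kit both round to 7.06 and did not overlap before rounding. The difference was -0.09 ± 0.0282 (interval -0.15 to -0.02), with an adjusted p of 0.042. Kit was thus not called, and its mean stayed within the olfactory range at both ages (7.02 in adult and 7.11 in young arteries). Neither p shows that ligand or receptor RNA is alike at the ages, since both intervals exclude no difference before adjustment over all genes.

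Hdc, histidine decarboxylase, makes histamine from histidine. Hdc was at 7.06, 7.10, 7.07 and 7.08 in adult arteries and at 7.14, 7.17, 7.11 and 7.16 in young arteries. The ages did not overlap, yet the difference was -0.07 ± 0.0163 and its adjusted p, 0.0116, missed the threshold. Without young replicate 3 the adjusted p of Hdc was 0.0046, which makes 5 of 9 members called, where 5068 of 19239 genes were called. With any other single array left out Hdc missed the threshold, with adjusted p-values of 0.0124 to 0.0337. Fcer1a encodes the subunit of the IgE receptor that binds IgE, and Ms4a2 the subunit that amplifies its signal. Fcer1a was at 6.92, 6.91, 6.91 and 6.93 in adult arteries and at 6.92, 6.95, 6.93 and 6.94 in young arteries. Ms4a2 was at 6.96, 6.93, 6.97 and 6.98 in adult arteries and at 6.94, 6.99, 6.98 and 7.05 in young arteries. Both genes overlapped between ages, lay within the olfactory range in every array and had adjusted p-values of 0.234 for Fcer1a and 0.42 for Ms4a2. Their RNA was not detectable above this background in either age. In 7 of 9 members the ages did not overlap, all of them with adult below young, where 46% of all genes did not overlap in one or the other direction.

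Chymase genes of rodents stand in a cluster with cathepsin G and granzymes, and tryptase genes stand in another, so the neighbours of the members were followed along both. The chymase locus on chromosome 15 runs from Cma1 to Gzmbl1 with 22 protein-coding genes in the GRCr8 gene table, and 16 of them were measured. Of these 2 were lower in adult arteries, Cma1 and Mcpt1l1, and 0 were higher, where 16% of all genes were lower. The other 14, among them Mcpt4, Mcpt8, Mcpt9, Mcpt10 and Ctsg (cathepsin G of neutrophils), had means between 6.81 and 7.03 at both ages and did not pass the threshold. They lie within the range of the olfactory receptors.

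Mcpt1l1 had the widest difference of the genes on the mast cell lists. It was measured at 6.93, 6.97, 7.50 and 6.95 in adult arteries, against 8.93, 9.58, 8.98 and 9.23 in young arteries. All adult values lay below all young values, and adult replicate 3 stood above the other adult arrays. The means were 7.09 ± 0.27 in adult and 9.18 ± 0.30 in young arteries (SD, n = 4 each), and the difference of -2.09 ± 0.185 is a 4.27-fold lower level in adult arteries (adjusted p = 1.01e-04). The adult mean lies within the olfactory range, so this fold is compressed, and with the lowest intensity subtracted the difference was -3.69. The platform annotation gives no symbol for this gene, and it was named through its Entrez identifier, for which the gene table lists rat mast cell protease 1, the chymase of connective tissue mast cells in rats, among the synonyms. Mcpt1 itself, a separate entry also named through its Entrez identifier, was at 6.85 in adult and 6.86 in young arteries. The row that the platform annotation lists as Mcpt1 is Vch in the current table and was at 6.88 in adult and 6.91 in young arteries. Genes of this family are close copies, and how probes were divided among them is not known here. The difference of Mcpt1l1 ranged between -3.69 and -1.96 over the alternative settings, with each array left out in turn included.

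**Figure D2:**
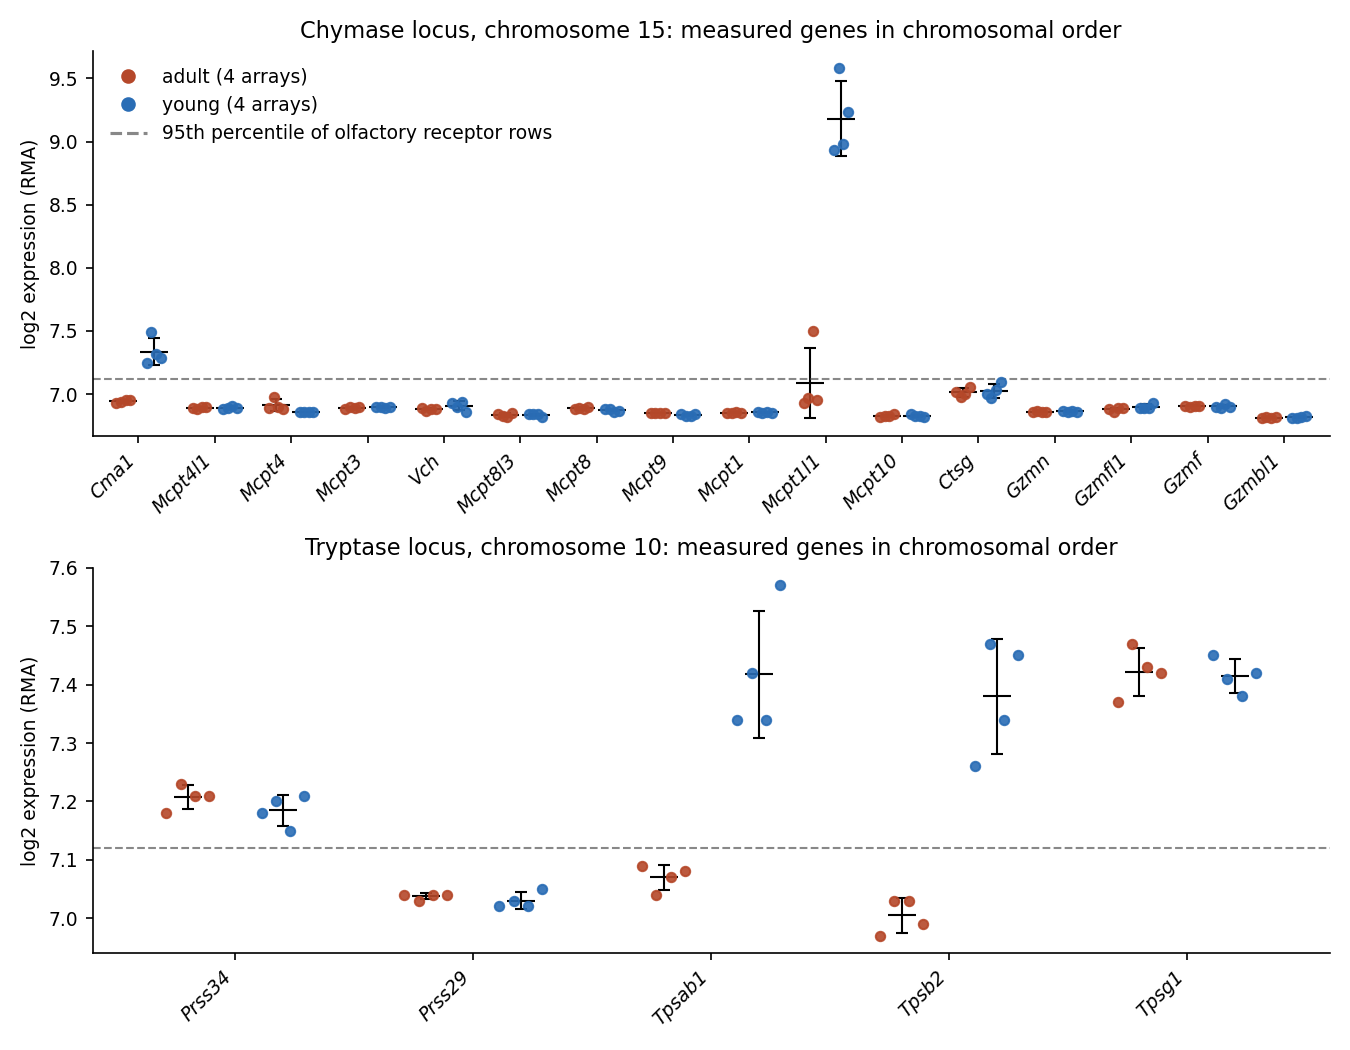
Log2 expression (vertical axis) of the measured genes of the chymase locus (upper panel) and the tryptase locus (lower panel) in their order on the chromosome, adult arrays left and young arrays right of each tick, with mean and SD. Cma1 and Mcpt1l1 in the upper panel and Tpsab1 and Tpsb2 in the lower panel are lower in adult arrays, and none of the 14 and 3 other genes passed the threshold.

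The tryptase locus on chromosome 10 holds Prss34, Prss29, Tpsab1, Tpsb2 and Tpsg1 in this order, and all 5 were measured. Tpsab1 and Tpsb2, adjacent in that order, were the 2 that fell, where 16% of all genes were lower. Both are members, listed with earlier results known. Tpsg1, a tryptase held in the membrane, was at 7.42 ± 0.04 in adult and 7.42 ± 0.03 in young arteries (SD, n = 4 each). Prss34, a protease of basophils and mast cells in mice, was at 7.21 in adult and 7.19 in young arteries. The 3 uncalled genes of the locus had means between 7.03 and 7.42.

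The granule list, fixed for proteases and for genes that pack or release them, had 21 measured genes, of which 7 were lower and 2 higher in adult arteries. These are 33.3% lower and 42.9% called, beside 16% and 32.7% of all genes. The list holds the 4 member proteases and was chosen with earlier results known, so these shares are a description. The median difference of the list was 0.0, and most of its chymases lay on the floor. The 7 lower genes were the 4 member proteases, Mcpt1l1, Srgn and Ndst2. Srgn encodes serglycin, the core protein that binds proteases in the granule and is also made by endothelium and other blood-derived cells. Srgn was at 8.72, 8.90, 8.81 and 8.29 in adult arteries and at 9.40, 9.70, 10.06 and 9.85 in young arteries. Every adult array was below every young array, and the difference was -1.08 ± 0.177 (adjusted p = 0.00207). Ndst2, the sulphotransferase needed for mast cell heparin in mice, was at 7.74, 7.61, 7.67 and 7.64 in adult arteries and at 8.51, 8.44, 8.51 and 8.46 in young arteries, a difference of -0.82 ± 0.0308 (adjusted p = 3.18e-06). Both ages of Ndst2 lay in narrow bands that did not overlap, and both were above the olfactory range. The cells that make Ndst2 RNA cannot be told apart in whole arteries.

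The 2 higher granule genes are made by many cell types. Lamp1, a lysosomal membrane protein, was higher by 0.62 ± 0.0424 (adjusted p = 3.15e-05), and Vamp8, which takes part in granule fusion, was higher by 0.33 ± 0.0498 (adjusted p = 0.0013). Higher genes made up 16.7% of all genes. Cd63, a granule membrane protein also found in most cells, was at 10.62 ± 0.20 in adult and 10.40 ± 0.10 in young arteries (SD, n = 4 each) and overlapped between ages.

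Among 25 mast cell identity genes other than proteases, 5 were lower and 5 higher in adult arteries, and the median difference was -0.02. The 10 called genes are 40.0% of the list, near the 32.7% of all genes. Gata2, a transcription factor that mast cell precursors need, was at 7.38, 7.68, 7.75 and 7.54 in adult arteries and at 8.12, 8.04, 8.09 and 7.93 in young arteries. The ages did not overlap, and the difference was -0.46 ± 0.0833 (adjusted p = 0.00324). The call of Gata2 was lost without adult replicate 4 or without young replicate 1, 2 or 3, with adjusted p-values between 0.0101 and 0.0118. Tal1, which acts with GATA factors in blood cells, fell by 0.11 ± 0.0152, and Il3ra, a subunit of the interleukin 3 receptor, by 0.21 ± 0.0331. Tal1 and Il3ra missed the threshold with ribosomal protein centring. Gata2 and Tal1 are also genes of endothelium. The endothelial marker list had 2 of 5 measured genes lower, where 16% of all genes were lower. Its mean level was 8.16 to 8.69 in adult arrays and 9.09 to 9.71 in young arrays. The part of endothelium in the differences of Gata2, Tal1 and Srgn was not tested.

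Mitf, the transcription factor that Kit signals reach in mast cells and melanocytes, was higher in adult arteries. Its values were 8.07, 8.14, 8.07 and 8.23 in adult arteries and 7.58, 7.60, 7.65 and 7.70 in young arteries, a difference of 0.50 ± 0.0425 (adjusted p = 8.74e-05). Many cell types make Mitf, and the array values do not separate its isoforms. Fcer1g, the signalling subunit that the IgE receptor shares with other Fc receptors, was at 7.80, 7.95, 8.02 and 7.96 in adult arteries and at 7.27, 7.34, 7.28 and 7.47 in young arteries. The difference was 0.59 ± 0.0602 (adjusted p = 1.97e-04), while the subunits Fcer1a and Ms4a2, which mast cells and basophils use, lay on the floor. Macrophages make Fcer1g, and 5 of 6 measured macrophage markers were higher, where 16.7% of all genes were higher. The mean level of these markers was 7.76 to 7.95 in adult arrays and 7.42 to 7.55 in young arrays. The part of macrophages in the difference of Fcer1g was not tested. Of the 25 genes 14 had a mean above the olfactory range at one age or both. Among those within it were Il1rl1, the interleukin 33 receptor, at 7.02 in adult and 7.06 in young arteries, and Mrgprb3 at 6.87 in adult and 6.89 in young arteries.

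The genes that carry Kit signals were mostly above the olfactory range (35 of 40 in adult and 34 of 40 in young arteries), and they moved in both directions. Of 40 measured genes 11 were lower and 10 higher in adult arteries, with a median difference of -0.01. These 21 called genes are 52.5% of the list, beside 32.7% of all genes. Among genes above the olfactory range at one age or both, 19 of 35 list genes were called, beside 5811 of all 12568 such genes. The list holds kinases and adaptors that most cells use, and the cells behind its values cannot be told apart in whole arteries. A fold of at least 1.5 left 5 of them called, and centring on ribosomal protein genes left 8.

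Plcg1, the phospholipase C that Kit can recruit, was at 9.38, 9.16, 9.24 and 9.21 in adult arteries and at 10.47, 10.37, 10.30 and 10.05 in young arteries, a difference of -1.05 ± 0.0919 (adjusted p = 9.40e-05). The kinase Fyn was at 7.83, 7.96, 8.10 and 7.86 in adult arteries and at 8.76, 8.70, 8.77 and 8.50 in young arteries, a difference of -0.75 ± 0.0806 (adjusted p = 2.63e-04). In both genes every adult array was below every young array. The adaptor Shc1 fell by 0.71 ± 0.0451, the kinase Mapk3 (ERK1) by 0.74 ± 0.0671, the kinase Akt1 by 0.49 ± 0.0484 and the kinase Lyn by 0.25 ± 0.0434. The inhibitors Sh2b3, which restrains Kit and cytokine receptors, and Socs1 fell by 0.38 ± 0.0502 and 0.30 ± 0.0333. Lyn, Sh2b3 and Socs1 missed the threshold with ribosomal protein centring (adjusted p = 0.232, 0.018 and 0.0962 in this order). Lyn also missed it with the replicate block (0.0275).

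Among the higher genes, the phosphatases Ptpn6 and Inpp5d, both of blood cells, rose by 0.10 ± 0.00833 and 0.10 ± 0.0123, the adaptor Dok1 by 0.24 ± 0.0352 and Socs6, which binds Kit, by 0.29 ± 0.0291. All 4 missed the threshold with ribosomal protein centring (adjusted p = 0.897, 0.938, 0.169 and 0.0744 in this order). Etv1, a factor that Kit signals stabilise in interstitial cells of Cajal, was at 8.31, 8.30, 8.15 and 8.22 in adult arteries and at 7.72, 7.71, 7.70 and 7.78 in young arteries, a difference of 0.52 ± 0.0365 (adjusted p = 3.65e-05). Ano1, the chloride channel that marks these cells and is also found in arterial smooth muscle, was lower without passing the threshold (-0.32 ± 0.0878, adjusted p = 0.0215). Bcl2, which protects cells from death, was at 8.75, 8.39, 8.42 and 9.05 in adult arteries and at 7.53, 7.49, 7.71 and 8.09 in young arteries (0.95 ± 0.19, adjusted p = 0.00529). The call of Bcl2 was lost when 1 of 5 arrays was left out, namely adult replicate 1 or 4 or young replicate 1, 2 or 3, with adjusted p-values up to 0.0178. Melanocytes, the other cells that depend on Kit, had 0 of 6 markers called, beside 32.7% of all genes. Only 1 of the 6, Sox10, had a mean above the olfactory range, so this count says little about melanocytes.

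**Figure D3:**
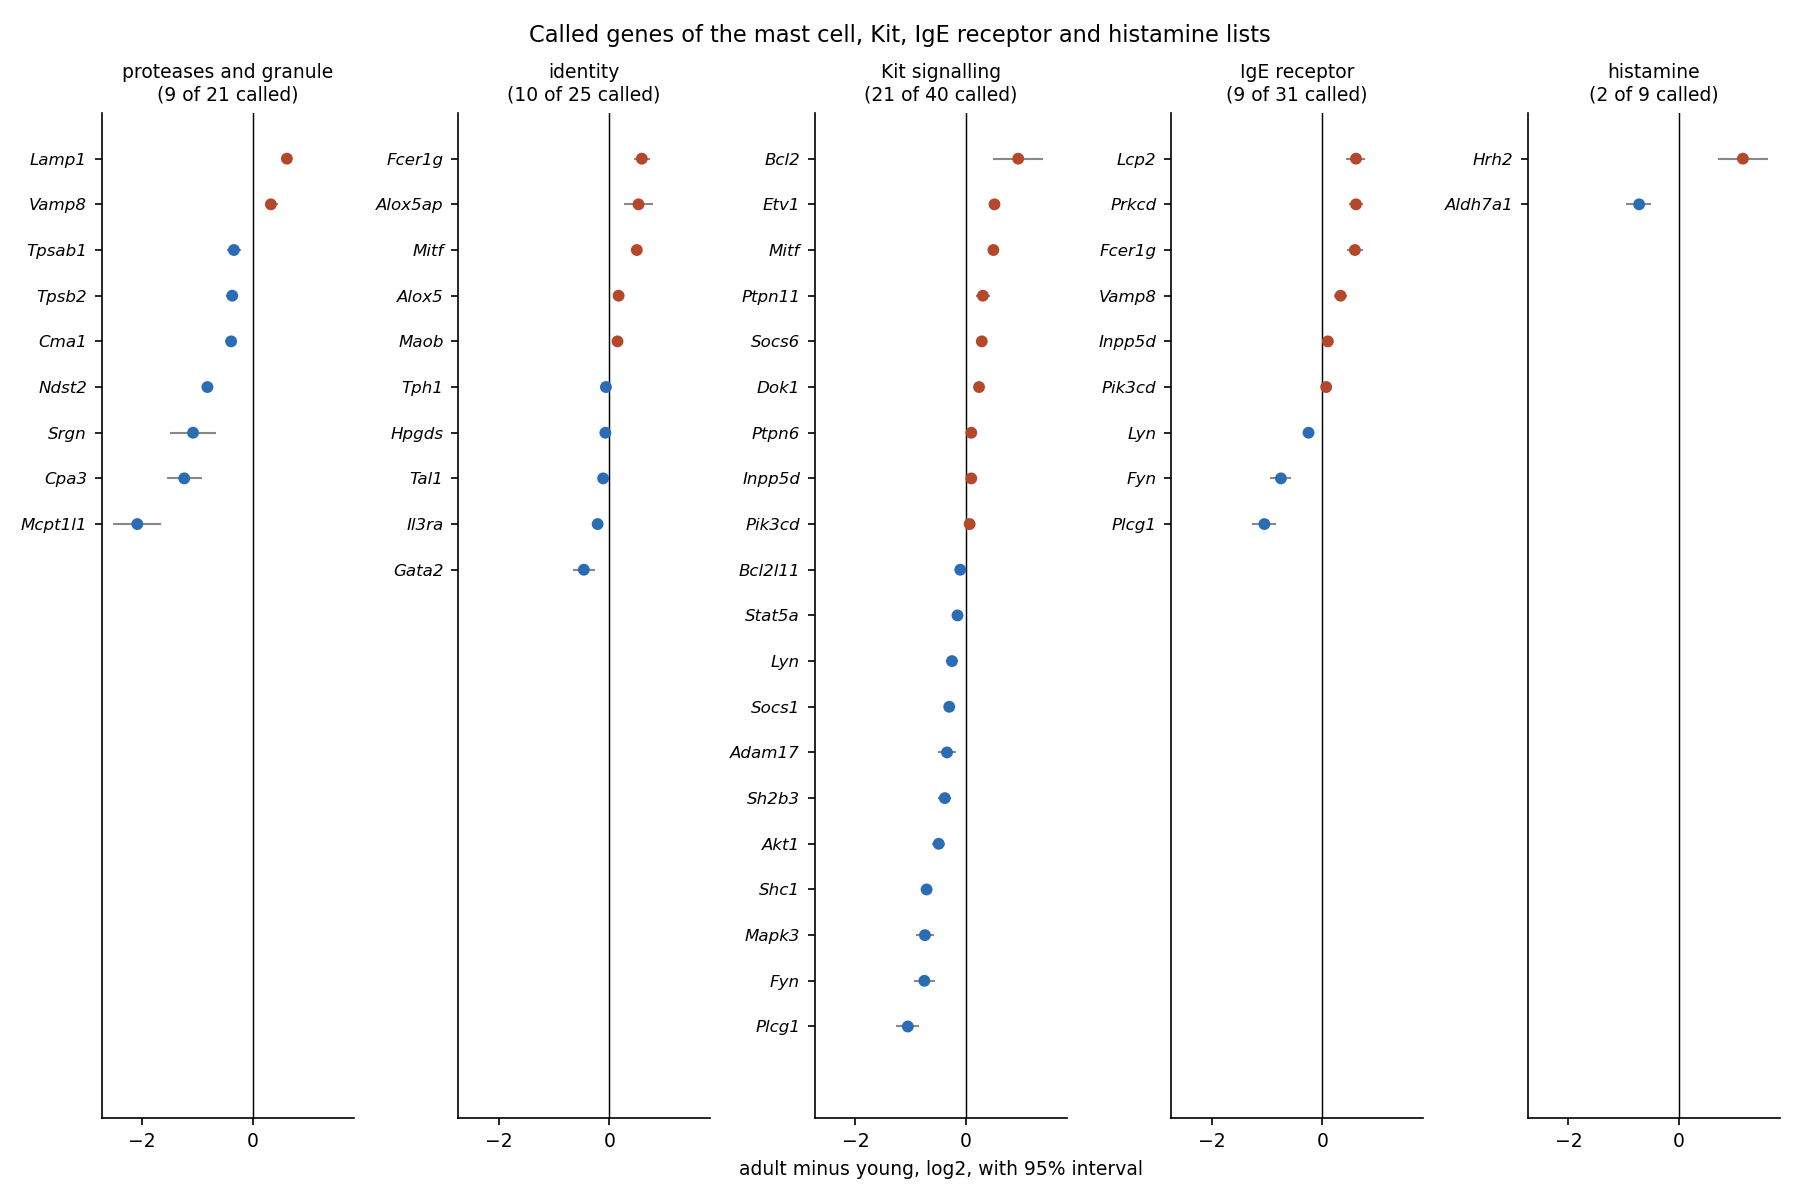
Adult minus young difference (horizontal axis, log2, with 95% interval) of the called genes of the 5 lists, 1 panel per list, with 1 called gene of the Kit list not drawn, with higher genes in red and lower genes in blue. Mcpt1l1 (-2.09), Cpa3 (-1.24), Srgn (-1.08) and Plcg1 (-1.05) lie farthest to the left and Hrh2 (1.16) farthest to the right, and a gene on 2 lists appears in both panels.

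Downstream of the IgE receptor 3 of 31 measured genes were lower and 6 higher, 29.0% in all and close to the 32.7% of all genes. The 3 lower genes, Plcg1, Fyn and Lyn, are shared with the Kit list. The adaptor Lcp2 of blood cells was at 7.75, 7.90, 7.95 and 8.13 in adult arteries and at 7.30, 7.34, 7.29 and 7.36 in young arteries, a difference of 0.61 ± 0.0744 (adjusted p = 4.81e-04). Prkcd, a protein kinase C that most cells make, was higher by 0.61 ± 0.0531. The kinase Syk, which starts the signal, was at 7.14 in adult and 7.08 in young arteries and missed the threshold (adjusted p = 0.0241). The cytokine genes Il4, Il5, Il13, Tnf and Csf2, which activated mast cells transcribe, had means between 6.88 and 7.14 in both ages and none was called.

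Among 9 genes of histamine synthesis, breakdown and reception 1 was lower and 1 higher, 22.2% of the list beside 32.7% of all genes. Hrh2, a histamine receptor that relaxes vascular smooth muscle, was at 8.91, 8.49, 8.03 and 8.04 in adult arteries, against 7.21, 7.17, 7.21 and 7.23 in young arteries. Every adult array was above every young array, and the difference was 1.16 ± 0.194 (adjusted p = 0.00224), a 2.23-fold higher level in adult arteries. The call of Hrh2 was lost with a block for replicate number (adjusted p = 0.0116). Hrh1, the receptor of endothelial histamine responses, was at 7.14 in adult and 7.18 in young arteries and was not called. Aldh7a1, an aldehyde dehydrogenase with many substrates, was at 8.51 ± 0.11 in adult and 9.24 ± 0.18 in young arteries (SD, n = 4 each), a difference of -0.72 ± 0.0965. The degrading enzymes Hnmt and Aoc1 lay on the floor, at 6.85 and 6.97 in adult and at 6.86 and 6.96 in young arteries. Slc18a2, which loads histamine into granules, was at 7.13 in adult and 7.18 in young arteries, and it missed the threshold (adjusted p = 0.0194).

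Some mast cell protease genes were also highest in the same array of an age. Adult replicate 3 had the highest Cpa3 and Mcpt1l1 of the adult arrays, and young replicate 2 had the highest Cpa3, Cma1, Tpsb2 and Mcpt1l1 of the young arrays. These arrays also had the highest level of Adipoq, a marker of fat cells, of their age. Adipoq was at 7.03, 7.04, 7.32 and 7.05 in adult arteries and at 7.18, 8.12, 7.28 and 7.25 in young arteries. The adipocyte markers had a mean level of 7.07 to 7.18 in adult arrays and 7.15 to 7.47 in young arrays. Of these markers 0 of 5 were called, beside 32.7% of all genes. The part of attached fat in the protease values was not tested. Without both arrays, a setting chosen after the data were seen, Cpa3 differed by -1.18 (adjusted p = 0.00125), Cma1 by -0.35 (3.47e-04), Tpsb2 by -0.35 (0.00466) and Mcpt1l1 by -2.10 (1.68e-04). Tpsab1 differed by -0.34 and was no longer called (0.0157), and neither was Srgn (0.0162). In all 3 of 9 members and 6 of 21 granule genes were called without them, where 4163 of 19239 genes were called.

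**Figure D4:**
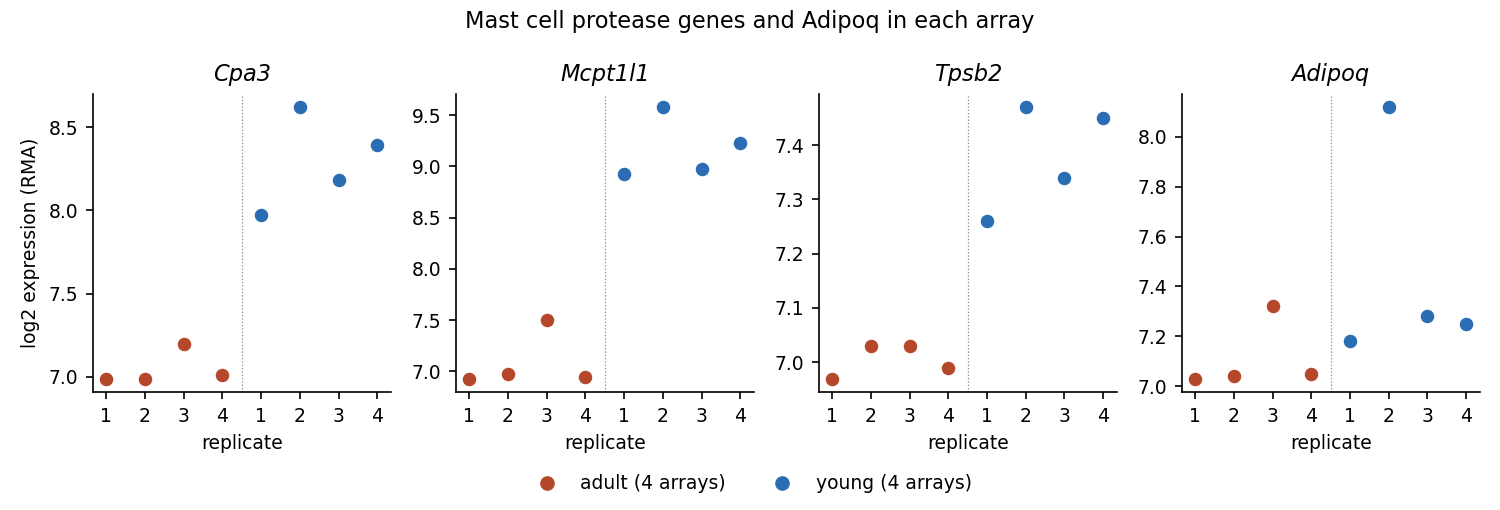
Log2 expression (vertical axis) of Cpa3, Mcpt1l1, Tpsb2 and the adipocyte gene Adipoq in adult replicates 1 to 4 and then young replicates 1 to 4 (horizontal axis), with a scale of its own for each gene. Adult replicate 3 is the highest adult array for Cpa3 (7.20), Mcpt1l1 (7.50) and Adipoq (7.32), and young replicate 2 is the highest young array for all 4 genes.

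Likeness was measured as the Pearson correlation of deviations from the age means over the 8 arrays, which share their normalization, and is given as a description. The 5 listed genes most like Cpa3, of 16591, were Rad18 (0.993), Iyd (0.962), Pomc (0.941), Hykk (0.939) and Tlcd2 (0.939). Tpsb2 came at rank 7 with 0.929 and Cma1 at rank 102 with 0.821, while Mcpt1l1, which has no listed symbol and hence no rank, had 0.895. Tpsab1 had 0.498, Kit 0.527 and Kitlg -0.035. The fat cell genes Plin1 and Adipoq had 0.845 and 0.838, while the fat cell gene Fabp4 had 0.444. The genes most like Kit were Cdh26 (0.989), C1h16orf92 (0.975), Exosc3 (0.973), Kctd19 (0.973) and Or10aa3 (0.967), of which the last is an olfactory receptor. The fat cell genes Fabp4, Plin1 and Adipoq had 0.843, 0.825 and 0.801 with Kit. The genes most like Kitlg were Ccdc113 (0.959), Naaladl1 (0.95), Eif2s1 (0.949), Cd302 (0.948) and Tnfsf10 (0.948).

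The tissue was checked against markers fixed for 14 cell types. Smooth muscle markers were high in every array, with a mean level of 12.88 to 12.94 in adult and 12.37 to 12.49 in young arrays. In adult arteries 4 of 4 measured smooth muscle markers were higher, where 16.7% of all genes were higher. The mast cell marker list had a mean level of 6.97 to 7.01 in adult and 7.20 to 7.35 in young arrays, but 8 of its 9 measured genes are the members without Kitlg, so that it repeats their differences. Its markers Kit, Ms4a2, Fcer1a and Mcpt1 lay within the olfactory range at both ages. Basophil markers had a mean level of 7.02 to 7.04 in adult and 7.05 to 7.08 in young arrays. Of these markers 1 of 5 was called, Il3ra, beside 32.7% of all genes. The genes most particular to basophils in mice, Mcpt8 and Prss34, did not pass the threshold.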

How the data were processed

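The RNA of whole arteries was hybridised to 8 Affymetrix arrays, 4 adult and 4 young. The deposited values are log2 expression made by the authors with RMA (version not given), quantile normalization and a custom chip definition in which an Entrez gene is 1 probe set. How background was corrected is not stated in these sources. Every column belongs to 1 of the samples, and all have 7.29 as their median, with 7.0 and 8.07 as quartiles, so that a shift of all genes cannot be seen. Precision is limited by the number of arrays. The platform annotation gave symbols for 16592 rows, and Entrez identifiers matched to a GRCr8 gene table named 1834 more.

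The ages, taken from the labels, were compared in R 4.3.3 with lmFit and eBayes of limma 3.58.1 (two-sided, without covariates, Benjamini-Hochberg over 19239 rows, threshold 0.01, no minimum fold). This fit was tested on simulated data. The members and the 5 gene lists were chosen with earlier results of these data known. All members are described, list genes by call and role, and for Cpa3, Kit and Kitlg the 5 listed genes most alike. Mcpt2, Mcpt1l4, Mcpt8l2, Pik3ca and Vav1 were not analysed here, and some genes of the Kit list count in its totals but are not reported singly. Alternatives changed the test (the ANOVA of the methods, robust variances with an intensity trend, array weights), the values (quantile normalization run again, centring on 31 ribosomal protein rows, subtraction of the lowest intensity, the dimmest 25% of rows removed), the design (a block for replicate number, a block for sample codes on either side of 20, single arrays removed) and the threshold (0.05, or a 1.5-fold change besides). Removal of adult replicate 3 with young replicate 2 was chosen after the data were seen.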

Additional observations from a re-analysis of the deposited data

Results flagged for a closer look

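Within each age the highest or lowest of the 4 arrays was set against the other 3, for the 9 members and the called list genes (48 genes, 96 groups). In 3 groups the gap to the nearest array took a larger share of the range than Dixon's critical value for 4 samples, which chance exceeds in about 1 in 20 groups, so that 3 of 96 is no more than chance gives. Cpa3 in adult replicate 3 was at 7.20, where the other adult arrays were at 6.99 to 7.01 (gap 0.9 of the range). Mcpt1l1 in adult replicate 3 was at 7.50, where the others were at 6.93 to 6.97 (0.926). Adipoq was also the highest of the adult arrays there (7.32). Vamp8 in adult replicate 4 was at 7.69, where the others were at 7.46 to 7.49 (0.858).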

How the results depend on the processing

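No member and none of the 43 called list genes changed direction under any alternative. The call of Cpa3 held under all 20 settings, while Cma1 and Tpsb2 lost theirs under 2 and Tpsab1 under 3. The threshold of 0.05 and the second quantile normalization could not have ended a call. Fcer1a and Ms4a2 were removed with the dimmest 25% of rows and have no value there. A fold of at least 1.5 left 1427 genes called, with 1 member, 5 granule, 1 identity, 5 Kit and 5 IgE receptor genes. Ribosomal protein centring, which moved the median of all genes by 0.013, left 2680 genes called, with 1 member, 5 granule, 4 identity, 8 Kit and 5 IgE receptor genes. The member proteases kept nearly the same differences, so their lost calls do not mean lost differences. The SE of Mcpt1l1 was 0.122 with the centring and 0.185 without it. The cause of the lost calls was not tested. Without adult replicate 3 and young replicate 2 together 4163 genes were called, 4 of them identity genes. At an adjusted p below 0.05 there were 15 of 31 IgE receptor and 5 of 9 histamine genes called, where 8753 of 19239 genes were called. Kit (0.042) and Hdc (0.0116) were called among the members at this threshold. Hdc was also called with intensity trend and robust variances (0.00474) and after subtraction of the lowest intensity (0.00752). The robust setting called 4 of 9 histamine genes, where it called 7029 of 19239 genes. The methods' ANOVA called 6 of 25 identity genes, where it called 5517 of 19239 genes. With each array left out in turn the identity list had 5 to 8 called genes, where 4951 to 5759 of 19239 genes were called. Of the 43 called genes 11 lost their call without at least 1 array (among them Gata2, Hpgds, Alox5ap, Tph1, Maob, Adam17, Stat5a, Ptpn11, Bcl2 and Bcl2l11), with adjusted p-values of 0.0101 to 0.0303.

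Adult and young samples of one replicate number come from different animals, and their deviations from the age means correlated at -0.082, -0.035, 0.04 and 0.009, so the numbers do not pair the samples. With the replicate block 4408 genes, 4 members, 5 identity genes and 1 histamine gene were called, and Cpa3 differed by -1.24 (adjusted p = 0.00437). Signal near the floor limits the members other than Kitlg, since their adult means lie within the olfactory range.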

Other observations

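The lipid mediator and amine genes of mast cells, part of the identity list, moved in both directions. Alox5, the lipoxygenase that starts leukotriene synthesis, was at 7.19 ± 0.05 in adult and 7.03 ± 0.02 in young arteries (SD, n = 4 each) and was called higher (0.17 ± 0.0262, limma adjusted p = 0.00159), and its partner Alox5ap was at 7.97 ± 0.23 in adult and 7.44 ± 0.09 in young arteries (adjusted p = 0.00739). Ltc4s, which makes leukotriene C4, was at 7.23 in adult and 7.25 in young arteries and was not called. Hpgds, the prostaglandin D synthase of blood cells, was at 6.94 in adult and 7.01 in young arteries (adjusted p = 0.00702), and Tph1, which starts serotonin synthesis, was at 6.99 in adult and 7.06 in young arteries (adjusted p = 0.00998). Both lay within the olfactory range at both ages. Maob, an amine oxidase, was at 7.21 in adult and 7.06 in young arteries (adjusted p = 0.00564). The call was lost on removal of any 1 of 7 arrays for Alox5ap, Hpgds and Tph1 and any 1 of 6 for Maob, with adjusted p-values up to 0.0237 for Alox5ap, 0.0212 for Hpgds, 0.0303 for Tph1 and 0.0183 for Maob. Enpp3, an ectoenzyme used to mark basophils and mast cells in humans, was at 8.43 ± 0.35 in adult and 8.32 ± 0.15 in young arteries, with overlapping values.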
